A study of Mus musculus with 12 samples.

Results

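The solute carriers (SLC) are the membrane proteins that move amino acids, sugars, metals, nucleosides, ions and mitochondrial metabolites across cell membranes, and their mouse genes carry symbols that begin with Slc and a digit. The table of the study held 379 such symbols. Without 4 genes marked as pseudogenes and without Slc2a1, Slc2a6, Slc16a3, Slc7a2, Slc7a11, Slc11a1 and Slc40a1, which were set aside by name, 368 were left, and 200 of these had a normalized count of at least 10 in at least 3 of the 12 libraries. The members were thus chosen by symbol and selected on one measured quantity, their normalized counts, and the 200 stand among 13369 genes of the table that passed the same limit and were tested. The other 168 genes were too low to test.

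The cells were bone-marrow-derived macrophages (BMDMs), which are grown from marrow precursors with the growth factor M-CSF, here at 20 nM for 7 days. The mice were Irx3-/- on C57BL/6J, so the controls lacked the gene too. For the last 4 h before RNA was taken, every culture had lipopolysaccharide (LPS), a bacterial cell wall component, at 100 ng/ml. There were 4 groups of 3 libraries: IRX3_S389A and IRX3_S361A, which carried IRX3 with a serine replaced by alanine, IRX3_WT, which carried the wild-type protein, and GFP, the control, each delivered by infection with adeno-associated virus (AAV). Irx3 encodes a homeobox transcription factor. The labels give neither the promoter of the virus nor the species of the coding sequence nor the number of mice. The labels do not say that the 3 libraries of a group came from separate animals or cultures, so p-values measure only the spread between these libraries. No group went without LPS, so the response to LPS itself was not measured.

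A carrier can be a uniporter, a symporter that couples its substrate to an ion gradient, or an exchanger, and its abundance can limit how fast a cell can take up or release a substrate. Macrophages stimulated by LPS are known to alter their uptake of glucose, amino acids and metals, and to move metabolites between cytosol and mitochondria through the SLC25 carriers. Lysosomal carriers return the products of digested material to the cytosol, and zinc and iron carriers take part in withholding metals from microbes.

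Promoters of 4 members are shown because these members had large differences at well-measured levels and stand for opposite directions, with Slc23a2 and Slc16a10 higher and Slc37a2 and Slc36a1 lower with IRX3_WT than with GFP. The sequences are from RefSeq (GRCm38.p6), run from 250 bases before to 50 bases after an annotated start and are given 5′ to 3′ on the gene's strand. Capitals mark matches, on either strand, to a metal response element (TGCACNC in Slc23a2), an AP-1 element (TGANTCA in Slc37a2), the E-box of TFEB and MYC (CACGTG in Slc36a1) and the core of the NRF2 element (TGACNNNGC in Slc36a1, overlapping the second E-box). RefSeq lists 2 promoters for Slc23a2, of which 1 is printed, and 1 for each of the other 3. The printed Slc23a2 window lies wholly upstream of the gene span given further on, which is from another annotation (GENCODE).
Slc23a2, chr2:132145271-132145570, minus strand: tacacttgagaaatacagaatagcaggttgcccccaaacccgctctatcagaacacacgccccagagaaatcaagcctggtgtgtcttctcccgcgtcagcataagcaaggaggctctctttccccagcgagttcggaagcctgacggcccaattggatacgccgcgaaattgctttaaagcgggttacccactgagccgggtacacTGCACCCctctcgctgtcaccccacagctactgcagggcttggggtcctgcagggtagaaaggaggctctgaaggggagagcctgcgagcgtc
Slc16a10, chr10:40142205-40142504, minus strand: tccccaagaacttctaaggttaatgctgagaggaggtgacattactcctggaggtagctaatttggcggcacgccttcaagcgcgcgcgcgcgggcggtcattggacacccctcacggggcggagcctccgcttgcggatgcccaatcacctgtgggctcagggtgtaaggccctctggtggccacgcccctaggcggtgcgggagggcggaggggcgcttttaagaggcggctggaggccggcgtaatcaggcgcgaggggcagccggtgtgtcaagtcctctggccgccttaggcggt
Slc37a2, chr9:37255689-37255988, minus strand: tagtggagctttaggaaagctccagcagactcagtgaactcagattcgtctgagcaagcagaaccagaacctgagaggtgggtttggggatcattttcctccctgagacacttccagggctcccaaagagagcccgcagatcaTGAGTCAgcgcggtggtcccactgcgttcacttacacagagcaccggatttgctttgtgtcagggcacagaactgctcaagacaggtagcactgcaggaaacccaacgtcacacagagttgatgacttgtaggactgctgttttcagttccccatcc
Slc36a1, chr11:55204090-55204389, plus strand: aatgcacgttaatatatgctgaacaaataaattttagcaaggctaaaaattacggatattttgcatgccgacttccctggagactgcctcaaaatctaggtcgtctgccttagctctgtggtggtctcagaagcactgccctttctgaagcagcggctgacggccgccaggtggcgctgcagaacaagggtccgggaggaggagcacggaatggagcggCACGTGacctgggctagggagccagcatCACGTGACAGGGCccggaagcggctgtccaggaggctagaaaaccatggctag

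Of the 200 members, 153 matched the promoter table, with 211 promoters in all. CACGTG occurred in 13.7% of member promoters, in 10% of the 12062 promoters of genes tested and in 7.15% of all 32851. TGANTCA occurred in 6.16%, 5.26% and 7.81% of the same sets, TGCACNC in 14.2%, 12.5% and 12.6%, and TGACNNNGC in 21.3%, 14.6% and 12.4%. TGCGCNC, another form of the metal response element, occurred in 22.7%, 25.8% and 15.4%. TGATGNAA, the C/EBP-ATF response element, occurred in 2.84%, 2.4% and 3.97%. ACANNTGT, the element of Iroquois proteins, occurred in 3.79%, 3.82% and 7.38%, and in none of the 4 promoters printed. These are matches of letters in windows of 300 bases and say nothing of binding.

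Recovered reads per library ran from 17149058 to 20108002, and 1 read was worth 0.890 to 1.14 normalized counts, so the counting floor of 3 reads lay between 2.67 and 3.41 normalized counts. The members together held 1.23 to 1.26% of each total in the 9 libraries with IRX3 and 1.27 to 1.29% in the 3 GFP libraries. No read of Irx3 was found in GFP libraries, and its counts were 194, 203 and 165 normalized counts with IRX3_S389A, 324, 364 and 358 with IRX3_S361A and 165, 170.3 and 196 with IRX3_WT. IRX3_S361A libraries held more Irx3, so in comparisons with IRX3_S361A the effects of the amino acid and of the amount of transcript cannot be told apart. All 8 macrophage markers were tested. Under the deposited scaling their summed counts ran from 393368 to 406993 with IRX3_S389A and 416752 to 429929 with IRX3_S361A. They ran from 389296 to 393725 with IRX3_WT and 359792 to 370143 with GFP. Lyz2 held the largest part of these sums. Library totals under this scaling were 17325311 to 17469765 with GFP and 19513613 to 19796325 with IRX3_WT. As a share of these totals, the macrophage sum was higher with GFP than with IRX3_WT. Single markers went both ways under the deposited scaling. Adgre1, Mertk and Cd14 passed as higher with IRX3_WT than with GFP, and Fcgr1 passed as lower. Of 6 neutrophil markers, Ly6g, Mpo and Elane were at 0 in all libraries, and the summed counts of the 6 ran from 29.5 to 47.3 with IRX3_S389A, 27.3 to 48.7 with IRX3_S361A, 41.0 to 62.3 with IRX3_WT and 23.2 to 34.3 with GFP. IRX3_WT and GFP did not overlap in this sum. S100a8, a neutrophil gene that other myeloid cells can also express, averaged 23.1 ± 5.49 normalized counts with IRX3_S389A, 20.7 ± 3.92 with IRX3_S361A, 29.2 ± 4.81 with IRX3_WT and 12.8 ± 1.18 with GFP (SD, n = 3 each) and was higher with IRX3_WT than with GFP (log2 difference 1.12, SE 0.31, limma adjusted p = 0.00356), while Camp did not pass (log2 difference 0.60, SE 0.39, limma adjusted p = 0.24). Sums of the 4 dendritic cell markers, nearly all from Xcr1, ran from 132 to 175 with IRX3_S389A, 129 to 145 with IRX3_S361A, 139.8 to 157 with IRX3_WT and 115 to 143 with GFP, and those of the 4 stromal markers from 24.2 to 40.3 with IRX3_S389A, 19.1 to 41.7 with IRX3_S361A, 13.7 to 17.7 with IRX3_WT and 13.4 to 23.2 with GFP. Stromal sums of IRX3_S389A lay above those of IRX3_WT and GFP. Dcn had 10.3, 4.03 and 10.2 normalized counts with IRX3_S389A and 2.78, 0 and 0.89 with GFP. It reached the limit for testing only with the help of IRX3_S389A, where its mean was highest, so values alone are given. Col1a2, the other stromal marker tested, did not pass between these groups (log2 difference 0.77, SE 0.49, limma adjusted p = 0.24). The sums of 3 B cell markers stayed at or below 10.2 and those of 4 T and NK cell markers at or below 1.86, and the mast cell gene Fcer1a was at 0. The part of these other cell types in the differences of the members was not tested. In bulk RNA, fewer cells of a type and less RNA per cell cannot be told apart.

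By level per length, the leading members were the ADP/ATP carrier of the inner mitochondrial membrane Slc25a5 with 4236 normalized counts per kilobase of exon (mean of 12 libraries), the lysosomal peptide and histidine carrier Slc15a3 with 2821, the heavy chain of the 4F2 antigen Slc3a2 with 2504, the zinc importer Slc39a1 with 2486 and the copper carrier Slc31a2 with 2100.2. The haem carrier Slc48a1 followed with 1848, the neutral amino acid carrier Slc7a8 with 1611 and the taurine carrier Slc6a6 with 1581. The median member stood at 85.1 and the lowest, the glutamate carrier Slc1a2, at 1.42. Levels of Slc25a5 and Slc39a1 are uncertain, because 33.8% and 21.8% of their stretches of 50 transcript bases also occur in pseudogenes.

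The first question was what wild-type IRX3 changed among the carriers of cells that lack the gene. Under the deposited scaling 12 of 25 metal carriers were higher and 4 lower, 7 of 10 sugar carriers were lower, and amino acid carriers went both ways. With equal totals the metal carriers turned to 3 higher and 9 lower, so their direction depended on the scaling. With IRX3_WT, 91 of 200 members (45.5%) passed the test against GFP, while 39.6% of all genes tested did so. Of these 91, 41 were higher (20.5% of members, against 21.0% of all genes) and 50 were lower (25% of members, against 18.6% of all genes). The test was limma on log2(value + 1), with Benjamini-Hochberg adjustment over all 13369 genes and a threshold of 0.05. Through the pseudocount, the differences of low genes understate the ratio of counts. The share of members that passed thus lay close to the background. The counts by substrate class given further on stand against the same shares of all genes, 21.0% higher and 18.6% lower, or 1395 higher and 5519 lower of the 13369 genes with equal totals.

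A narrower call asked for a fitted difference of at least 1.5-fold and groups that do not overlap. It took 23 members with IRX3_WT against GFP (11.5%, against 11.2% of all genes), 7 higher (3.5%, against 4.85%) and 16 lower (8.0%, against 6.35%). Slc26a10 among the 7 and Slc5a11 and Slc16a4 among the 16 reached the limit on level only with the help of the group where they were highest, so nothing is read from their calls. Over the 193 members that pass the limit without any 1 of the groups, 88 passed the test (45.6%, against 40.4% of 12955 genes chosen alike), 40 higher (20.7%, against 21.5%) and 48 lower (24.9%, against 18.8%). The narrower call took 20 of them (10.4%, against 11.1%), 6 higher (3.11%, against 4.89%) and 14 lower (7.25%, against 6.25%). The median log2 difference of the 200 members was -0.07, and that of all genes was -0.01. Scaling the libraries to equal totals in place of the deposited scaling moved the median of all genes by -0.18 and turned the split of the members to 17 higher and 97 lower. Statements on direction are therefore relative to the median gene of the deposited scaling. Where a member is said not to pass, this too holds for that scaling unless equal totals are named. In 60 of the 91 members the call held in every fit that left out 1 library, and in 31 it ended in at least 1 such fit.

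**Figure D1:**
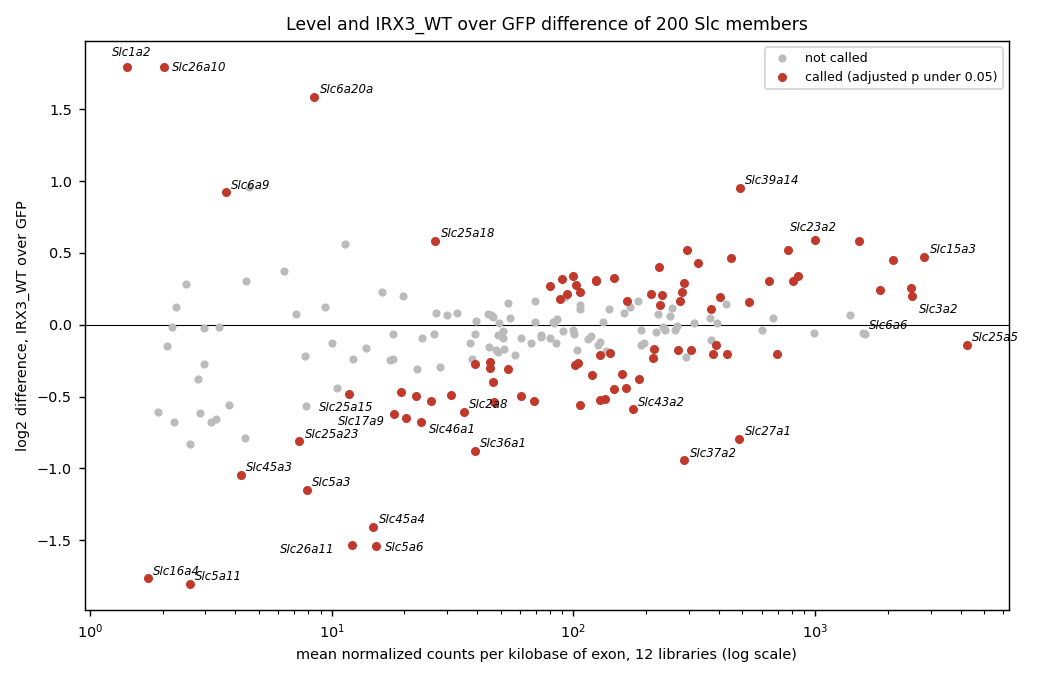
Mean level of each of the 200 members over 12 libraries (normalized counts per kilobase of exon, log axis) against its log2 difference, IRX3_WT over GFP. Red points are the 91 called members, and the differences over 1.5 on the log2 scale in either direction belong to members under 20 normalized counts per kilobase. Slc26a10, Slc5a11 and Slc16a4 would have failed the limit on level without the group where they were highest.

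The amino acid and peptide carriers, 25 members, held 9 that rose and 7 that fell with IRX3_WT against GFP. Scaled to equal totals they held 4 higher and 13 lower. Slc16a10, a carrier of aromatic amino acids (ENSMUSG00000019838.11, chromosome 10, 40033532 to 40142258), had 11688, 11760.2 and 12064 normalized counts with IRX3_S389A, 10551, 10736 and 10548 with IRX3_S361A, 13574, 13452 and 13111 with IRX3_WT and 8985, 9023 and 8832 with GFP. The 4 groups did not overlap, with IRX3_WT highest and GFP lowest. It rose with IRX3_WT against GFP (log2 difference 0.58, SE 0.03, limma adjusted p = 1.06e-17), was lower with IRX3_S361A than with IRX3_WT (log2 difference -0.33, SE 0.03, limma adjusted p = 4.64e-10) and also lower with IRX3_S389A than with IRX3_WT (log2 difference -0.18, SE 0.03, limma adjusted p = 1.09e-04). It had the smallest p over the 4 groups in its class.

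Slc15a3, the lysosomal carrier named above (ENSMUSG00000024737.2, chromosome 19, 10839727 to 10859362), had 15786, 16511 and 15735 normalized counts with IRX3_S389A, 16168, 15322 and 15228 with IRX3_S361A, 18179, 17623 and 17171 with IRX3_WT and 12639, 12519.9 and 13003 with GFP. The groups with IRX3 all lay above GFP, and both mutants lay below IRX3_WT. It was higher with IRX3_WT than with GFP (log2 difference 0.47, SE 0.03, limma adjusted p = 1.14e-14). Exons of another gene cover 28.1% of its exon bases, and the strand setting of the counts is not given. Slc3a2, which forms exchangers with light chains of the SLC7 family, averaged 9404 ± 279 normalized counts with IRX3_WT and 8198 ± 85.6 with GFP (SD, n = 3 each), a log2 difference of 0.20 (SE 0.04, limma adjusted p = 1.63e-05) that did not pass with libraries scaled to equal totals (limma adjusted p = 0.649). Slc7a8, one of its light chains, did not pass in any of the 6 comparisons under the deposited scaling and averaged 7898 ± 228 with IRX3_WT and 8265 ± 156 with GFP.

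Some of the largest ratios belonged to amino acid carriers at low levels. Slc1a2, the glutamate carrier known from astrocytes (ENSMUSG00000005089.15, chromosome 2, 102658659 to 102790784), had 14.5, 12.1 and 14.2 normalized counts with IRX3_S389A, 12.1, 18.9 and 18.1 with IRX3_S361A, 36.4, 34.3 and 34.1 with IRX3_WT and 13.9, 9.21 and 6.23 with GFP. The IRX3_WT libraries stood above all 9 others, and the mutants overlapped GFP. The difference was 1.80 for IRX3_WT against GFP (SE 0.35, limma adjusted p = 5.68e-05), -1.07 for IRX3_S361A against IRX3_WT (SE 0.35, limma adjusted p = 0.0294) and -1.30 for IRX3_S389A against IRX3_WT (SE 0.35, limma adjusted p = 0.00766), all on the log2 scale. The call against IRX3_WT ended for IRX3_S361A without IRX3_WT replicate 1, IRX3_WT replicate 2, IRX3_WT replicate 3 or IRX3_S361A replicate 1 (limma adjusted p up to 0.146), as well as with no filter on low values.

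Slc6a20a, a carrier of proline and other imino acids (ENSMUSG00000036814.13, chromosome 9, 123634770 to 123678885), had 54.8, 42.3 and 23.4 normalized counts with IRX3_S389A, 21.3, 18.9 and 14.1 with IRX3_S361A, 61.0, 51.9 and 69.4 with IRX3_WT and 22.3, 14.7 and 22.3 with GFP. IRX3_WT and GFP did not overlap, IRX3_S361A lay with GFP, and IRX3_S389A lay above GFP and overlapped IRX3_WT. The difference was 1.59 for IRX3_WT against GFP (SE 0.29, limma adjusted p = 2.06e-05) and -1.70 for IRX3_S361A against IRX3_WT (SE 0.29, limma adjusted p = 2.97e-05). IRX3_S389A did not pass against IRX3_WT (log2 difference -0.66, SE 0.29, limma adjusted p = 0.124). It shares 15.3% of its stretches of 50 bases with Slc6a20b. Slc6a9, a glycine carrier, had 28.6, 21.8 and 21.6 normalized counts with IRX3_WT and 8.35, 14.7 and 14.2 with GFP (log2 difference 0.92, SE 0.33, limma adjusted p = 0.0262). Its call ended with equal totals (limma adjusted p = 0.0562) and without IRX3_WT replicate 1 or GFP replicate 1 (limma adjusted p up to 0.146), as well as with no filter on low values and with DESeq2, and exons of other genes cover 30.2% of its exon bases.

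Among the amino acid carriers that fell, Slc43a2, which lets branched-chain and aromatic amino acids leave the cell (ENSMUSG00000038178.16, chromosome 11, 75531694 to 75577575), had 1961, 1771 and 1824 normalized counts with IRX3_S389A, 1766, 1623 and 1673 with IRX3_S361A, 1421, 1372 and 1417 with IRX3_WT and 2175, 1985 and 2174 with GFP. GFP was highest, IRX3_WT lowest and the mutants between, with no overlap between IRX3_WT and any other group. It fell with IRX3_WT against GFP (log2 difference -0.59, SE 0.05, limma adjusted p = 2.15e-12) and was higher with IRX3_S361A than with IRX3_WT by 0.27 and with IRX3_S389A than with IRX3_WT by 0.40 on the log2 scale (limma adjusted p = 1.76e-04 and 2.25e-07). Slc36a1, a proton-coupled carrier of small amino acids in lysosomes (ENSMUSG00000020261.15, chromosome 11, 55204350 to 55236330), had 197, 225 and 207 normalized counts with IRX3_S389A, 184, 202 and 184 with IRX3_S361A, 153, 149.5 and 208 with IRX3_WT and 336, 284 and 313 with GFP. Each group with IRX3 lay below GFP without overlap, by 0.88 on the log2 scale with IRX3_WT (log2 difference -0.88, SE 0.12, limma adjusted p = 6.41e-08). Its promoter, printed above, held both E-boxes.

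With IRX3_S361A against IRX3_WT, 39 of 200 members (19.5%) passed, while 15.5% of all genes did. Of these, 22 were higher (11.0%, against 6.43% of all genes) and 17 were lower (8.5%, against 9.07%). With IRX3_S389A against IRX3_WT, 42 members (21.0%) passed, while 15.3% of all genes did. Of these, 24 were higher (12% of members, against 8.21%) and 18 were lower (9.0%, against 7.08%). Scaled to equal totals, the splits were 41 higher and 12 lower with IRX3_S361A and 26 higher and 16 lower with IRX3_S389A. Over all 13369 genes that scaling gave 1805 higher and 754 lower with IRX3_S361A, and 1171 higher and 874 lower with IRX3_S389A. The shift of the members with IRX3_S361A thus went along with a shift of all genes. Both comparisons share the IRX3_WT libraries with each other and with the comparison of IRX3_WT and GFP, so their calls are not independent. In 20 of the 39 and 25 of the 42 the call held in every fit without 1 library.

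The amino acid class had 1 member higher and 5 lower with IRX3_S361A, and 2 higher and 8 lower with IRX3_S389A, each against IRX3_WT. Scaled to equal totals, it had 5 higher and 4 lower, and 2 higher and 7 lower. Differences of at least 1.5-fold without overlap were held by 4 members with IRX3_S361A (2.0%, against 1.91% of all genes), with Slc5a6 and Slc45a3 higher (1.0%, against 0.8%) and Slc1a2 and Slc6a20a lower (1.0%, against 1.11%). With IRX3_S389A none was higher (0.868% of all genes were), and Slc1a2 was lower (0.5%, against 0.853%, or 1.72% in both directions). The exchanger Slc7a5 and the carrier Slc38a2, which bring large and small neutral amino acids into cells, were chosen after their values were seen. Slc7a5 had 756, 748 and 733 normalized counts with IRX3_S389A, 936, 852 and 919.8 with IRX3_S361A, 913, 945 and 941 with IRX3_WT and 959, 926 and 987 with GFP, and IRX3_S389A lay below all other libraries (log2 difference, IRX3_S389A over IRX3_WT, -0.32, SE 0.06, limma adjusted p = 7.72e-05). Slc38a2 had 3059.8, 3093 and 3402 normalized counts with IRX3_S389A, 3522, 3969 and 4046 with IRX3_S361A, 3883, 3687 and 3826 with IRX3_WT and 4327, 4378 and 4422 with GFP. Its IRX3_S389A libraries were again lowest (log2 difference, IRX3_S389A over IRX3_WT, -0.26, SE 0.05, limma adjusted p = 1.11e-04). Slc1a4, a carrier of alanine, serine and cysteine, was lower with IRX3_S389A than with GFP without overlap, at 78.5, 69.4 and 67.1 normalized counts with IRX3_S389A and 128, 111 and 94.4 with GFP (log2 difference -0.62, SE 0.17, limma adjusted p = 0.00323).

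**Figure D2:**
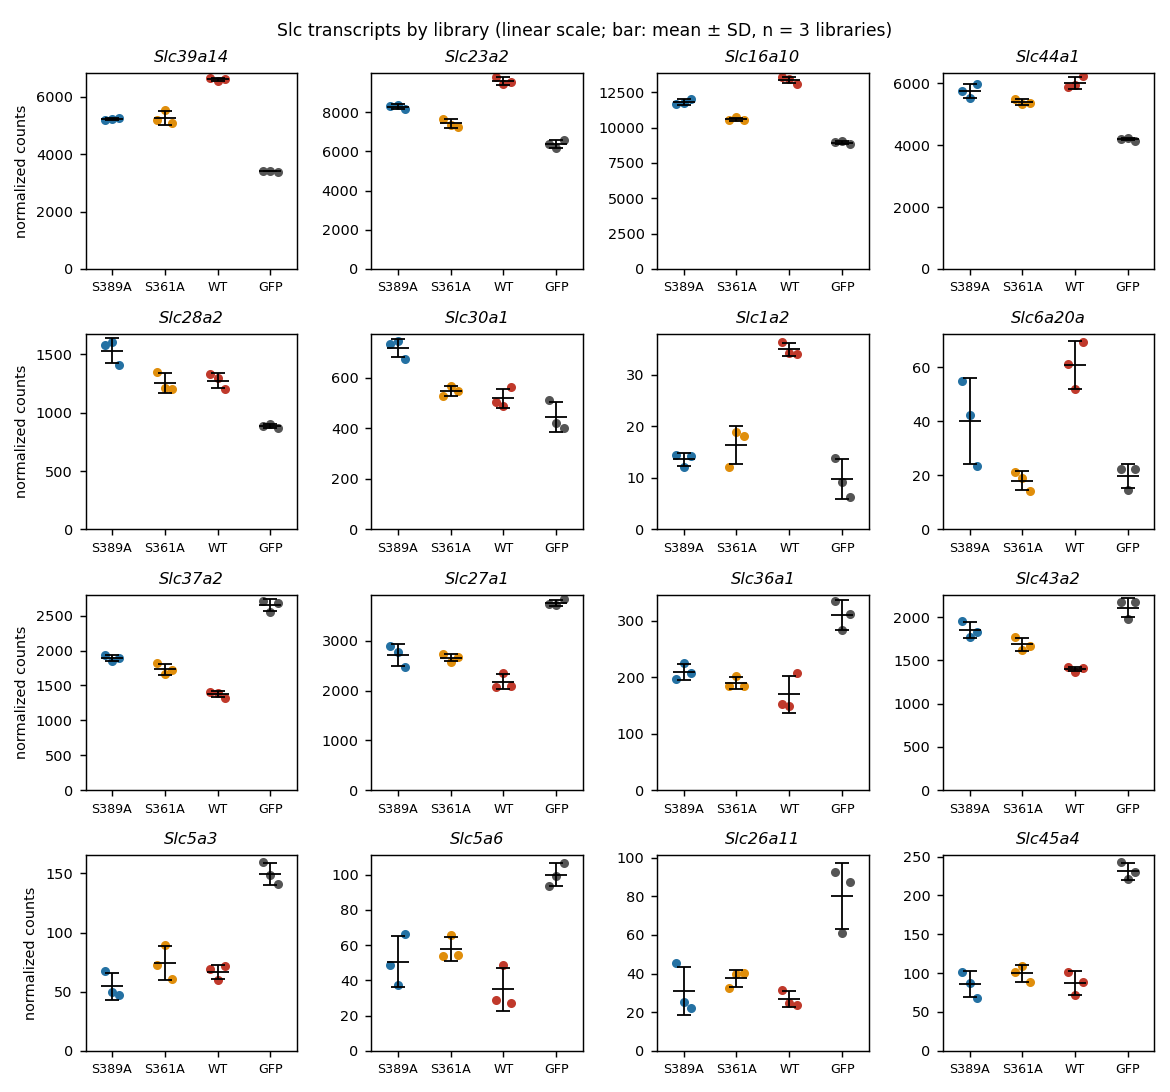
Normalized counts (linear axis from 0) of 16 members in each library, with IRX3_S389A, IRX3_S361A, IRX3_WT and GFP side by side. Points are libraries, and bars are mean ± SD (n = 3). Slc39a14, Slc23a2, Slc16a10 and Slc44a1 were highest with IRX3_WT and lowest with GFP, Slc37a2, Slc27a1 and Slc43a2 the opposite, and Slc28a2 and Slc30a1 had their highest mean with IRX3_S389A.

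Metal and haem carriers were led by Slc39a14, which was higher with IRX3_WT under both scalings. Summed over the class, counts were 41015 ± 131 with IRX3_S389A, 40031 ± 587 with IRX3_S361A, 41769 ± 166 with IRX3_WT and 34331 ± 101 with GFP (mean ± SD, n = 3 each). Under the deposited scaling the sum was higher in each library with IRX3 than in any GFP library. As a share of the library total, it was also higher with IRX3_WT than with GFP, but by less, since GFP totals were lower.

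Slc39a14 (ZIP14), which imports zinc, manganese and iron (ENSMUSG00000022094.15, chromosome 14, 70303469 to 70351425), had 5193, 5234 and 5251 normalized counts with IRX3_S389A, 5191, 5545 and 5086 with IRX3_S361A, 6650.3, 6550.2 and 6633 with IRX3_WT and 3421, 3419 and 3396 with GFP. IRX3_WT was highest, the mutants overlapped each other, and GFP was lowest, with clear gaps between the 3 levels. It rose with IRX3_WT against GFP (log2 difference 0.95, SE 0.04, limma adjusted p = 3.87e-22). With IRX3_S361A it was lower than with IRX3_WT (log2 difference -0.33, SE 0.04, limma adjusted p = 2.18e-08), and with IRX3_S389A likewise (log2 difference -0.34, SE 0.04, limma adjusted p = 1.77e-08). Under equal totals it remained called in the same direction in these 3 comparisons.

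Abundant carriers of the class had smaller rises. Slc31a2, a copper carrier of endosomes, had 4440.0, 4472 and 4197 normalized counts with IRX3_S389A, 4743, 4671 and 4487 with IRX3_S361A, 4719, 4751 and 4525 with IRX3_WT and 3463, 3350.1 and 3419 with GFP. All 9 libraries with IRX3 lay above GFP, and IRX3_S389A lay a little below the other groups with IRX3 (log2 difference, IRX3_WT over GFP, 0.45, SE 0.04, limma adjusted p = 3.42e-12). Slc39a1 averaged 6173 ± 55.3 with IRX3_S389A, 6069 ± 23.2 with IRX3_S361A, 6127 ± 38.6 with IRX3_WT and 5139 ± 50.1 with GFP (SD, n = 3 each), and Slc48a1, which moves haem out of endosomes and lysosomes, 5547 ± 42.0 with IRX3_S389A, 4989 ± 114 with IRX3_S361A, 5311 ± 184 with IRX3_WT and 4487 ± 71.1 with GFP. Both passed for IRX3_WT against GFP, at 0.25 and 0.24 on the log2 scale (limma adjusted p = 1.27e-07 and 1.31e-06), and neither passed with equal totals (limma adjusted p = 0.0563 and 0.139). The copper importer Slc31a1 and the iron and manganese carrier Slc11a2, chosen after their values were seen, passed as higher by 0.30 and 0.16, but with equal totals Slc11a2 stood at -0.02.

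Slc30a1, which exports zinc from the cell (ENSMUSG00000037434.7, chromosome 1, 191906767 to 191913247), had 731, 745 and 675 normalized counts with IRX3_S389A, 526, 567 and 548 with IRX3_S361A, 503, 488 and 561 with IRX3_WT and 510.4, 419 and 402 with GFP. Its 3 IRX3_S389A libraries were the highest of the 12. It was higher with IRX3_S389A than with IRX3_WT (log2 difference 0.47, SE 0.08, limma adjusted p = 3.39e-05), than with IRX3_S361A (log2 difference 0.39, SE 0.08, limma adjusted p = 6.50e-04) and than with GFP (log2 difference 0.70, SE 0.08, limma adjusted p = 2.86e-09). The zinc importer Slc39a10, chosen after its values were seen, went the other way against GFP, with 656, 656 and 664 normalized counts with IRX3_S389A, 641, 678 and 664 with IRX3_S361A, 536, 522 and 487 with IRX3_WT and 784, 746 and 743 with GFP. IRX3_WT was lowest, the mutants lay between and GFP was highest (log2 difference, IRX3_WT over GFP, -0.56, SE 0.06, limma adjusted p = 3.43e-09). Slc39a4, another zinc importer chosen in the same way, was lowest with IRX3_S361A, at 206, 241 and 223 normalized counts against 310.1, 333 and 357 with IRX3_WT (log2 difference -0.58, SE 0.10, limma adjusted p = 3.34e-05). Of the genes of zinc sensing and buffering, 2 were tested. Mtf1, the metal-responsive transcription factor, passed as higher with IRX3_WT than with GFP (log2 difference 0.22, SE 0.07, limma adjusted p = 0.0113), though not with equal totals (limma adjusted p = 0.6), while the metallothionein gene Mt1 did not pass (log2 difference 0.02, SE 0.08, limma adjusted p = 0.839).

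Carriers of sugars, inositol and sugar phosphates had no rise with IRX3_WT against GFP. Of 10 members 7 passed as lower (Slc5a11 among them), or 9 with equal totals, and the facilitative glucose carriers Slc2a1 and Slc2a6 were set aside by the rule and are not among them. The sum over the class was 3300.5 ± 93.2 with IRX3_S389A, 3070.2 ± 152 with IRX3_S361A, 2639 ± 86.4 with IRX3_WT and 4261 ± 87.8 with GFP (mean ± SD, n = 3 each), with no overlap between GFP and the others. With IRX3_S361A 3 members and with IRX3_S389A 2 members were higher than with IRX3_WT, and none passed as lower.

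Slc37a2, an exchanger of glucose 6-phosphate and phosphate in the endoplasmic reticulum (ENSMUSG00000032122.15, chromosome 9, 37227585 to 37255738), had 1936, 1843 and 1895 normalized counts with IRX3_S389A, 1815, 1659 and 1724 with IRX3_S361A, 1407, 1396 and 1326 with IRX3_WT and 2709.9, 2551 and 2680.3 with GFP. IRX3_WT was lowest, IRX3_S361A and IRX3_S389A followed without overlap, and GFP was highest. It fell with IRX3_WT against GFP (log2 difference -0.94, SE 0.05, limma adjusted p = 6.08e-19) and was higher with IRX3_S361A than with IRX3_WT (log2 difference 0.33, SE 0.05, limma adjusted p = 1.77e-06) and with IRX3_S389A than with IRX3_WT (log2 difference 0.46, SE 0.05, limma adjusted p = 4.32e-09). Its promoter, printed above, held the AP-1 letters.

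Slc5a3, which couples myo-inositol to sodium (ENSMUSG00000089774.2, chromosome 16, 92058322 to 92087473), had 67.1, 49.3 and 46.7 normalized counts with IRX3_S389A, 72.9, 89.5 and 60.3 with IRX3_S361A, 68.9, 60.2 and 71.7 with IRX3_WT and 159.6, 148 and 141 with GFP. All groups with IRX3 lay below GFP and overlapped each other. The differences from GFP were -1.46 with IRX3_S389A, -1.02 with IRX3_S361A and -1.15 with IRX3_WT on the log2 scale (limma adjusted p = 1.11e-08, 1.80e-05 and 1.19e-06). The inositol carrier Slc5a11 had 0.985, 8.31 and 1.14 normalized counts with IRX3_WT, where 2 libraries lay under the floor of 3 reads, and 10.2, 12.9 and 9.80 with GFP. It would not have passed the limit on level without the GFP group, where it was highest, so its difference is given as values only.

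Slc2a8, a glucose carrier of intracellular membranes, had 76.8, 104 and 84.2 with IRX3_WT and 116, 133 and 156 with GFP (log2 difference -0.61, SE 0.16, limma adjusted p = 0.00197). Slc50a1, a sugar uniporter of the SWEET family, had 236, 227 and 217 normalized counts with IRX3_S389A, 239.9, 216 and 202 with IRX3_S361A, 181, 183 and 165 with IRX3_WT and 219.9, 244 and 260.0 with GFP. IRX3_WT was lowest without overlap with any group (log2 difference, IRX3_WT over GFP, -0.45, SE 0.11, limma adjusted p = 7.13e-04). Slc37a3, of the same family as Slc37a2, did not pass for IRX3_WT against GFP (log2 difference 0.02, SE 0.09, limma adjusted p = 0.887).

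Of the mitochondrial SLC25 carriers, 38 members, 7 rose and 10 fell with IRX3_WT against GFP, or 3 and 20 with equal totals. Under the deposited scaling their summed counts stayed within a narrow range, at 40889.7 ± 621 with IRX3_S389A, 40368 ± 191 with IRX3_S361A, 40224 ± 90.0 with IRX3_WT and 39375 ± 492 with GFP (mean ± SD, n = 3 each). As a share of the library total, the sum was lower with IRX3_WT than with GFP. The most abundant differed little under the deposited scaling. Slc25a5 averaged 6526 ± 292 normalized counts with IRX3_WT and 7191 ± 167 with GFP (log2 difference -0.14, SE 0.04, limma adjusted p = 0.00199), and the other ADP/ATP carrier, Slc25a4, 2251 ± 109 with IRX3_WT and 2337 ± 99.7 with GFP (log2 difference -0.05, SE 0.05, limma adjusted p = 0.404). The phosphate carrier Slc25a3 did not pass (log2 difference 0.06, SE 0.03, limma adjusted p = 0.132), though with equal totals it passed as lower.

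The called differences of this class were spread over substrates. Slc25a12, which exchanges aspartate and glutamate for the malate-aspartate shuttle (ENSMUSG00000027010.16, chromosome 2, 71271063 to 71367749), had 2226, 2419 and 2322 normalized counts with IRX3_S389A, 2070.0, 1961 and 2061 with IRX3_S361A, 2372, 2289.7 and 2046 with IRX3_WT and 1786, 1852 and 1836 with GFP. Libraries with IRX3 lay above GFP, and those of IRX3_S389A lay above those of IRX3_S361A. The log2 differences were 0.29 for IRX3_WT against GFP and 0.19 for IRX3_S389A against IRX3_S361A (limma adjusted p = 8.17e-06 and 0.0074), and the second did not pass with equal totals (limma adjusted p = 0.0569) and ended without IRX3_S361A replicate 2 or IRX3_S389A replicate 2 (limma adjusted p up to 0.0693). Slc25a18, a glutamate carrier, had 65.0, 50.9 and 58.0 with IRX3_WT and 39.0, 33.2 and 42.7 with GFP (log2 difference 0.59, SE 0.22, limma adjusted p = 0.0354), and its call ended with equal totals (limma adjusted p = 0.123) and without IRX3_WT replicate 1, IRX3_WT replicate 3, GFP replicate 1 or GFP replicate 2 (limma adjusted p up to 0.133), as well as with no filter on low values and with DESeq2. Slc25a15, the ornithine carrier of the urea cycle, had 63.0, 72.7 and 107 with IRX3_WT and 119.7, 125 and 121 with GFP (log2 difference -0.62, SE 0.17, limma adjusted p = 0.00263). Slc25a23, a carrier of ATP-magnesium and phosphate, fell by 0.81 (log2 difference -0.81), a call that ended without GFP replicate 3 (limma adjusted p up to 0.0722).

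Members of this class outside the naming rule, chosen after their values were seen, give further detail. Slc25a37 (mitoferrin 1), which brings iron into mitochondria, had 2857, 2944 and 2731 normalized counts with IRX3_S389A, 2239, 2707 and 2495 with IRX3_S361A, 3222, 2840.0 and 3389.8 with IRX3_WT and 2399, 2307 and 2131 with GFP. IRX3_WT lay above GFP (log2 difference 0.46, SE 0.07, limma adjusted p = 6.44e-05), and IRX3_S361A lay below IRX3_WT (log2 difference -0.35, SE 0.07, limma adjusted p = 0.00313). Slc25a22, a glutamate carrier, averaged 2784 ± 185 with IRX3_S389A, 2605 ± 227 with IRX3_S361A, 2291 ± 101 with IRX3_WT and 2006 ± 133 with GFP (SD, n = 3 each), and passed as higher than GFP with each construct. For IRX3_WT this did not hold with equal totals (limma adjusted p = 0.843) or without IRX3_WT replicate 2 or GFP replicate 3 (limma adjusted p up to 0.0885). Slc25a33, a pyrimidine nucleotide carrier, was lower with IRX3_S389A than with IRX3_WT without overlap, at 149.8, 166 and 150.4 normalized counts with IRX3_S389A and 190.0, 225 and 233 with IRX3_WT (log2 difference -0.47, SE 0.11, limma adjusted p = 0.00301).

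**Figure D3:**
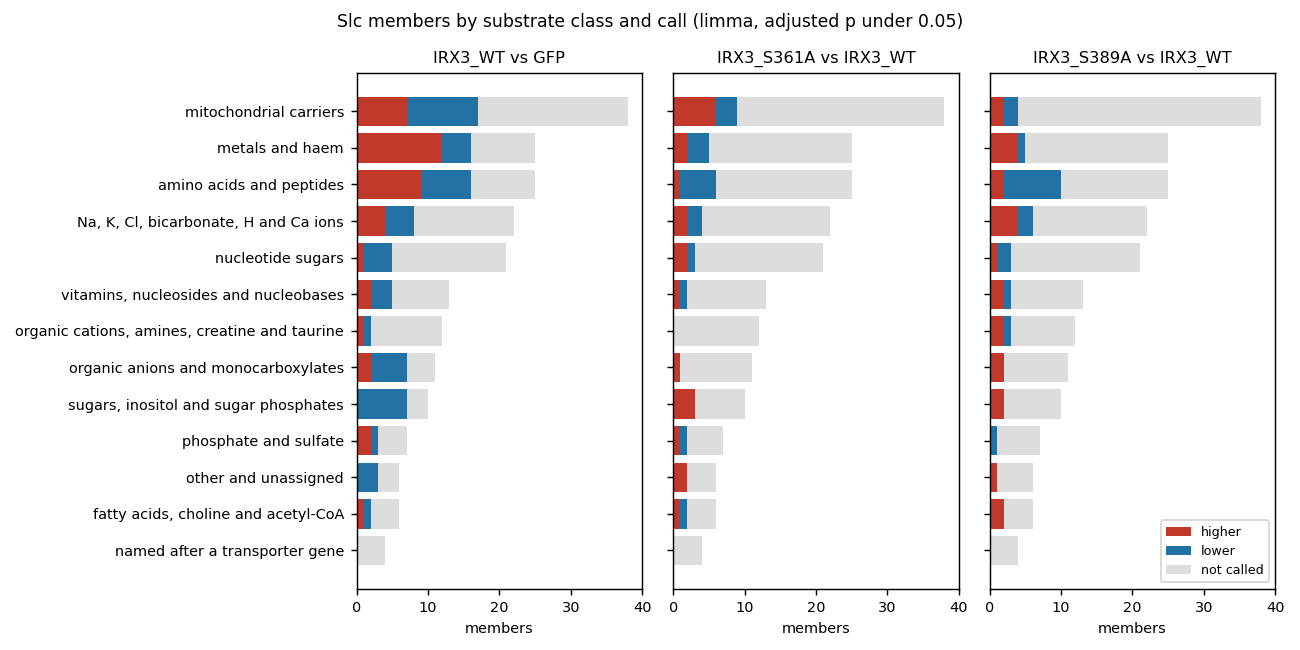
Number of members in each substrate class that were higher (red), lower (blue) or not called (grey) in 3 comparisons, by limma with an adjusted p under 0.05. With IRX3_WT against GFP the metal class had 12 higher and 4 lower, and the sugar class 0 higher and 7 lower, under the deposited scaling. With equal totals the metal class had 3 higher and 9 lower.

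Of 13 carriers of vitamins, nucleosides and nucleobases, 2 rose and 3 fell with IRX3_WT against GFP, or 2 and 7 with equal totals. Slc23a2, the sodium-dependent carrier of ascorbate (ENSMUSG00000027340.15, chromosome 2, 132052496 to 132145108), had 8339, 8372 and 8160.5 normalized counts with IRX3_S389A, 7666, 7350.1 and 7274 with IRX3_S361A, 9816, 9443 and 9559 with IRX3_WT and 6378, 6169.7 and 6598 with GFP. The 4 groups did not overlap, with IRX3_WT highest, then IRX3_S389A, IRX3_S361A and GFP. It rose with IRX3_WT against GFP (log2 difference 0.59, SE 0.04, limma adjusted p = 1.17e-16), was lower with IRX3_S361A than with IRX3_WT (log2 difference -0.37, SE 0.04, limma adjusted p = 4.22e-10) and lower with IRX3_S389A than with IRX3_WT (log2 difference -0.21, SE 0.04, limma adjusted p = 3.21e-05). Between the mutants, it was higher with IRX3_S389A (log2 difference 0.16, SE 0.04, limma adjusted p = 0.00201).

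Slc28a2, which takes up purine nucleosides with sodium (ENSMUSG00000027219.13, chromosome 2, 122426477 to 122461137), had 1577, 1605 and 1409.5 normalized counts with IRX3_S389A, 1349, 1213 and 1200.2 with IRX3_S361A, 1328, 1294 and 1202 with IRX3_WT and 887, 906 and 866 with GFP. Each group with IRX3 lay above GFP, and IRX3_S389A lay above the others. It was higher with IRX3_S389A than with GFP (log2 difference 0.79, SE 0.06, limma adjusted p = 4.81e-14), than with IRX3_WT (log2 difference 0.26, SE 0.06, limma adjusted p = 0.00113) and than with IRX3_S361A (log2 difference 0.29, SE 0.06, limma adjusted p = 5.59e-04). Of its stretches of 50 bases, 35.4% also occur in Gm14085, so reads may be split between both. Slc29a1, an equilibrative nucleoside carrier, did not pass for IRX3_WT against GFP (log2 difference 0.07, SE 0.06, limma adjusted p = 0.367).

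Slc5a6, which takes up biotin and pantothenate (ENSMUSG00000006641.12, chromosome 5, 31036036 to 31048924), had 48.6, 37.2 and 66.1 normalized counts with IRX3_S389A, 53.6, 65.6 and 54.3 with IRX3_S361A, 28.6, 48.8 and 27.3 with IRX3_WT and 93.7, 99.5 and 107 with GFP. GFP was highest without overlap. It fell with IRX3_WT against GFP (log2 difference -1.54, SE 0.22, limma adjusted p = 3.33e-07) and was higher with IRX3_S361A than with IRX3_WT (log2 difference 0.76, SE 0.22, limma adjusted p = 0.0142), a call that ended without IRX3_WT replicate 1, IRX3_WT replicate 3 or IRX3_S361A replicate 2 (limma adjusted p up to 0.0864). The folate carrier Slc46a1 had 57.1, 64.4 and 42.1 normalized counts with IRX3_WT and 82.6, 78.3 and 101 with GFP (log2 difference -0.68, SE 0.18, limma adjusted p = 0.00249).

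Of the 6 carriers of fatty acids, choline and acetyl-CoA, 1 rose and 1 fell with IRX3_WT against GFP, or 1 and 2 with equal totals. Slc44a1, a choline carrier (ENSMUSG00000028412.17, chromosome 4, 53440413 to 53622478), had 5739.5, 5539 and 5977 normalized counts with IRX3_S389A, 5508, 5322 and 5355 with IRX3_S361A, 5884, 5933 and 6226 with IRX3_WT and 4191, 4222 and 4152 with GFP. Libraries with IRX3 lay above GFP, and IRX3_S361A lay below IRX3_WT. Its difference was 0.52 for IRX3_WT against GFP (SE 0.04, limma adjusted p = 2.45e-14). Slc27a1, which takes up long-chain fatty acids (ENSMUSG00000031808.7, chromosome 8, 71568882 to 71587302), had 2905, 2784 and 2479.7 normalized counts with IRX3_S389A, 2736, 2584 and 2676 with IRX3_S361A, 2081, 2355 and 2097 with IRX3_WT and 3739, 3721 and 3842 with GFP. GFP was highest, IRX3_WT lowest and the mutants between (log2 difference, IRX3_WT over GFP, -0.79, SE 0.05, limma adjusted p = 2.96e-15). It was higher with IRX3_S361A than with IRX3_WT (log2 difference 0.29, SE 0.05, limma adjusted p = 5.54e-05) and with IRX3_S389A than with IRX3_WT (log2 difference 0.32, SE 0.05, limma adjusted p = 1.60e-05). Slc27a4 of the same family did not pass (log2 difference 0.16, SE 0.07, limma adjusted p = 0.0532).

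Among 11 carriers of organic anions and monocarboxylates, 2 were called higher and 5 lower (Slc16a4 among them) with IRX3_WT against GFP, or 0 and 5 with equal totals. Slc16a1 (MCT1), which carries lactate and pyruvate (ENSMUSG00000032902.1, chromosome 3, 104638668 to 104658462), had 1440.0, 1460.5 and 1464 normalized counts with IRX3_S389A, 1246, 1244 and 1242 with IRX3_S361A, 1225, 1261 and 1207 with IRX3_WT and 1070.0, 1111 and 982 with GFP. IRX3_S389A was highest and GFP lowest, without overlap with other groups. It passed for IRX3_WT against GFP (log2 difference 0.22, SE 0.05, limma adjusted p = 5.83e-04), though not with equal totals (limma adjusted p = 0.458), and for IRX3_S389A against IRX3_WT (log2 difference 0.24, SE 0.05, limma adjusted p = 9.42e-04). Slc13a3, which takes up dicarboxylates, was highest with IRX3_S361A, at 2208, 2141 and 2124 normalized counts against 1884, 1956 and 1889 with IRX3_WT (log2 difference 0.18, SE 0.05, limma adjusted p = 0.00566). Its call for IRX3_WT against GFP (log2 difference 0.11, SE 0.05, limma adjusted p = 0.0463) ended in 9 of 12 fits without 1 library and turned to -0.06 with equal totals.

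Slc17a5, which exports sialic acid from lysosomes, averaged 525 ± 37.7 with IRX3_WT and 665 ± 18.9 with GFP (log2 difference -0.34, SE 0.07, limma adjusted p = 1.37e-04). Slc17a9, which loads nucleotides into vesicles, had 50.2, 41.5 and 60.3 with IRX3_WT and 72.4, 69.1 and 98.8 with GFP (log2 difference -0.65, SE 0.20, limma adjusted p = 0.00781), and its call ended without IRX3_WT replicate 2 or GFP replicate 3 (limma adjusted p up to 0.0846). Slc16a4, a relative of MCT1, had 5.91, 0 and 5.69 normalized counts with IRX3_WT, including 1 library with no read, and 15.8, 11.1 and 8.01 with GFP. It too would have failed the limit on level without GFP, where it was highest, and is given as values only.

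Of 12 carriers of organic cations, amines, creatine and taurine, 1 was higher and 1 lower with IRX3_WT than with GFP, or 0 and 3 with equal totals, where 21.0% of all genes were higher and 18.6% lower under the deposited scaling. Slc6a6, the most abundant of them, averaged 13858 ± 99.3 with IRX3_S389A, 13107 ± 369.6 with IRX3_S361A, 12997 ± 177 with IRX3_WT and 13518 ± 287 with GFP (SD, n = 3 each), and passed under the deposited scaling for IRX3_S389A against IRX3_WT alone (log2 difference 0.09, SE 0.03, limma adjusted p = 0.0453). That call ended without IRX3_WT replicate 2, IRX3_WT replicate 3, IRX3_S361A replicate 2, IRX3_S361A replicate 3, IRX3_S389A replicate 1, IRX3_S389A replicate 2, IRX3_S389A replicate 3, GFP replicate 1, GFP replicate 2 or GFP replicate 3 (limma adjusted p up to 0.114), as well as with TMM scaling, with only the 2 groups in the fit and with edgeR. With equal totals Slc6a6 passed as lower with IRX3_WT than with GFP, at -0.23 on the log2 scale (limma adjusted p = 1.11e-07). The creatine carrier Slc6a8 did not pass for IRX3_WT against GFP (log2 difference -0.22, SE 0.09, limma adjusted p = 0.0611). Slc6a12, a carrier of betaine and GABA, was higher with IRX3_S389A than with IRX3_WT, at 852, 916 and 985 normalized counts with IRX3_S389A and 752, 779 and 749 with IRX3_WT (log2 difference 0.27, SE 0.07, limma adjusted p = 0.00421). For IRX3_WT against GFP it fell by 0.18 (log2 difference -0.18), a call that ended without IRX3_WT replicate 1, IRX3_WT replicate 3, GFP replicate 2 or GFP replicate 3 (limma adjusted p up to 0.0922), as well as with no filter on low values and with DESeq2. The serotonin carrier Slc6a4 had 63.0, 76.5 and 66.1 with IRX3_S389A and 59.4, 33.2 and 20.5 with GFP (log2 difference 0.97, SE 0.26, limma adjusted p = 0.00344), and its call ended without GFP replicate 3 (limma adjusted p up to 0.0634), with a log2 difference of 0.61.

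Of 22 carriers of sodium, potassium, chloride, bicarbonate, protons and calcium, 4 rose and 4 fell with IRX3_WT against GFP, or 3 and 10 with equal totals. Slc12a4, which couples the exit of potassium and chloride (ENSMUSG00000017765.17, chromosome 8, 105943590 to 105966097), had 2922, 3107 and 2924 normalized counts with IRX3_S389A, 2974, 2842 and 2757 with IRX3_S361A, 2819.6, 2927 and 2919.8 with IRX3_WT and 2318, 2367 and 2321 with GFP. Libraries with IRX3 lay above GFP and were not separated among themselves (log2 difference, IRX3_WT over GFP, 0.31, SE 0.04, limma adjusted p = 1.87e-07). Slc4a7, a sodium-bicarbonate carrier (ENSMUSG00000021733.11, chromosome 14, 14702279 to 14799940), had 13416, 13548 and 15195 normalized counts with IRX3_S389A, 11822, 12777 and 12893 with IRX3_S361A, 14657, 13560.4 and 14138 with IRX3_WT and 11424, 10905 and 11092 with GFP. GFP was lowest, and IRX3_S361A lay below IRX3_WT (log2 difference, IRX3_S361A over IRX3_WT, -0.18, SE 0.04, limma adjusted p = 0.00329), a call that ended with equal totals (limma adjusted p = 0.0662).

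Slc9a5, a sodium-proton exchanger, had 91.9, 83.5 and 64.0 normalized counts with IRX3_S389A, 147, 120.3 and 96.5 with IRX3_S361A, 99.4, 68.5 and 89.9 with IRX3_WT and 143, 107 and 108 with GFP. IRX3_S389A lay below IRX3_S361A and GFP without overlap. It was lower with IRX3_S389A than with IRX3_S361A (log2 difference -0.59, SE 0.18, limma adjusted p = 0.024), a call that ended without IRX3_S361A replicate 1, IRX3_S361A replicate 2 or IRX3_S389A replicate 3 (limma adjusted p up to 0.166). Slc9a4, of the same family, had 5.17, 14.1 and 10.2 with IRX3_S389A and 17.6, 23.9 and 21.4 with GFP (log2 difference -1.11, SE 0.39, limma adjusted p = 0.0242). That call ended without IRX3_S389A replicate 1, GFP replicate 2 or GFP replicate 3 (limma adjusted p up to 0.17), as well as with DESeq2, and exons of other genes cover 21.3% of its exon bases. Slc9a9, an exchanger of endosomes chosen after its values were seen, had 329.5, 349 and 315 with IRX3_S389A and 445, 388 and 419 with IRX3_WT (log2 difference -0.33, SE 0.08, limma adjusted p = 0.00299).

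Phosphate and sulfate carriers numbered 7, of which Slc20a1 and Slc26a10 were called higher and 1 lower with IRX3_WT against GFP, or 1 higher and 4 lower with equal totals. Slc20a1, a sodium-phosphate symporter, had 1185, 1141 and 1108 normalized counts with IRX3_S389A, 1155, 1214 and 1306 with IRX3_S361A, 1465, 1384 and 1713 with IRX3_WT and 1329, 1390.5 and 1229 with GFP. IRX3_WT was highest, although 1 of its libraries lay within the range of GFP. It was lower with IRX3_S389A than with IRX3_WT (log2 difference -0.40, SE 0.06, limma adjusted p = 2.26e-05) and with IRX3_S361A than with IRX3_WT (log2 difference -0.31, SE 0.06, limma adjusted p = 7.14e-04). The call for IRX3_WT against GFP (log2 difference 0.20, SE 0.06, limma adjusted p = 0.0107) ended with equal totals (limma adjusted p = 0.761) and without IRX3_WT replicate 3 or GFP replicate 3 (limma adjusted p up to 0.153), with a log2 difference of 0.12 without the first of these. Slc26a11, a sulfate and chloride carrier (ENSMUSG00000039908.14, chromosome 11, 119355557 to 119381079), had 45.5, 25.2 and 22.4 normalized counts with IRX3_S389A, 32.4, 39.8 and 40.2 with IRX3_S361A, 31.5, 24.9 and 23.9 with IRX3_WT and 92.8, 60.8 and 87.3 with GFP. GFP lay above every library with IRX3. The differences from GFP were -1.39 with IRX3_S389A, -1.06 with IRX3_S361A and -1.54 with IRX3_WT (limma adjusted p = 2.61e-05, 0.00126 and 4.41e-06).

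Slc26a10 had 5.17, 8.05 and 5.08 normalized counts with IRX3_S389A, 8.10, 2.98 and 13.1 with IRX3_S361A, 16.7, 14.5 and 13.7 with IRX3_WT and 3.71, 4.60 and 2.67 with GFP. It would not have passed the limit on level without the IRX3_WT group, where it was highest, so its difference is given as values only. Under the deposited scaling Slc26a2, a sulfate carrier, did not pass for IRX3_WT against GFP (log2 difference -0.10, SE 0.05, limma adjusted p = 0.124), nor did the phosphate carrier Slc20a2 (log2 difference -0.07, SE 0.10, limma adjusted p = 0.631).

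Of 21 members of the SLC35 family, which brings nucleotide sugars into the Golgi and endoplasmic reticulum or has no known substrate, 1 rose and 4 fell with IRX3_WT against GFP, or 0 and 12 with equal totals. Slc35f6 had 917, 1005 and 992 normalized counts with IRX3_S389A, 1253, 1101 and 1196 with IRX3_S361A, 902, 908 and 924 with IRX3_WT and 1232, 1360.1 and 1337 with GFP. GFP and IRX3_S361A were high, and IRX3_WT and IRX3_S389A low. It fell with IRX3_WT against GFP (log2 difference -0.52, SE 0.06, limma adjusted p = 1.19e-09), was higher with IRX3_S361A than with IRX3_WT (log2 difference 0.38, SE 0.06, limma adjusted p = 6.37e-06) and lower with IRX3_S389A than with IRX3_S361A (log2 difference -0.28, SE 0.06, limma adjusted p = 6.03e-04). Slc35b1 fell with IRX3_WT against GFP (log2 difference -0.20, SE 0.06, limma adjusted p = 0.00734), a call that ended without GFP replicate 2 (limma adjusted p up to 0.0715). The abundant members Slc35a4 and Slc35f5 did not pass under the deposited scaling, at 0.05 and -0.04 on the log2 scale (limma adjusted p = 0.433 and 0.652). With equal totals Slc35a4 passed as lower.

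Of 6 members with other or unassigned substrates, 3 fell with IRX3_WT against GFP and none rose, under both scalings. Slc45a4 (ENSMUSG00000079020.9, chromosome 15, 73577424 to 73645762) had 101, 87.6 and 68.1 normalized counts with IRX3_S389A, 101, 109 and 88.5 with IRX3_S361A, 101, 71.6 and 88.8 with IRX3_WT and 243, 221 and 229.7 with GFP. All libraries with IRX3 lay below GFP and overlapped each other. Its differences from GFP were -1.44 with IRX3_S389A, -1.21 with IRX3_S361A and -1.41 with IRX3_WT (limma adjusted p = 6.61e-10, 6.14e-08 and 9.37e-10). Slc45a3 had 18.6, 16.1 and 15.2 normalized counts with IRX3_S389A, 18.2, 22.9 and 15.1 with IRX3_S361A, 11.8, 5.19 and 6.83 with IRX3_WT and 15.8, 14.7 and 19.6 with GFP. IRX3_WT was lowest and the other groups overlapped. Its call for IRX3_WT against GFP (log2 difference -1.04, SE 0.37, limma adjusted p = 0.0237) ended without IRX3_WT replicate 2, IRX3_WT replicate 3 or GFP replicate 3 (limma adjusted p up to 0.107), as well as with DESeq2. Its call for IRX3_S361A against IRX3_WT (log2 difference 1.19, SE 0.37, limma adjusted p = 0.0235) ended without IRX3_WT replicate 2, IRX3_WT replicate 3, IRX3_S361A replicate 1 or IRX3_S361A replicate 2 (limma adjusted p up to 0.103), as well as with only the 2 groups in the fit.

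Slc10a7, a relative of bile acid carriers, fell with IRX3_WT against GFP (log2 difference -0.30, SE 0.08, limma adjusted p = 0.00257) and was higher with IRX3_S361A (log2 difference 0.25, SE 0.08, limma adjusted p = 0.0264) and with IRX3_S389A (log2 difference 0.25, SE 0.08, limma adjusted p = 0.028) than with IRX3_WT. The first of these calls between constructs ended without IRX3_WT replicate 1, IRX3_WT replicate 2, IRX3_S361A replicate 2 or IRX3_S361A replicate 3 (limma adjusted p up to 0.087), as well as with no filter on low values. The other ended without IRX3_WT replicate 1, IRX3_WT replicate 2, IRX3_S389A replicate 2 or IRX3_S389A replicate 3 (limma adjusted p up to 0.15), as well as with no filter on low values. Slc46a3, a lysosomal carrier, had 11.4, 9.06 and 18.3 with IRX3_S389A and 27.8, 24.9 and 25.8 with GFP (log2 difference -1.02, SE 0.35, limma adjusted p = 0.0207), and its call ended without IRX3_S389A replicate 1, IRX3_S389A replicate 2, GFP replicate 1 or GFP replicate 3 (limma adjusted p up to 0.107). Slc10a3 and Slc22a18 did not pass in any of the 6 comparisons under the deposited scaling. Members that are named after a carrier gene but are not carriers (Slc4a1ap, Slc7a6os, Slc9a3r1 and Slc9a3r2) did not pass for IRX3_WT against GFP.

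Against GFP, 78 members (39.0%) passed with IRX3_S389A, while 35.0% of all genes did, and 61 (30.5%) passed with IRX3_S361A, while 25.9% of all genes did. The 78 split into 37 higher (18.5%, against 18.8% of all genes) and 41 lower (20.5%, against 16.2%), and the 61 into 32 higher (16.0%, against 14.9%) and 29 lower (14.5%, against 10.9%). With equal totals the splits were 21 higher and 93 lower with IRX3_S389A, and 12 higher and 58 lower with IRX3_S361A. Over all 13369 genes they were 1334 higher and 5397 lower with IRX3_S389A, and 1047 higher and 3226 lower with IRX3_S361A. The tilt to lower calls was thus shared by all genes. Differences of at least 1.5-fold without overlap were held by 12 members with IRX3_S389A (6.0%, against 9.84%), of which 5 were higher (2.5%, against 4.67%) and 7 lower (3.5%, against 5.16%). With IRX3_S361A they were held by 7 members (3.5%, against 5.4%), of which 1 was higher (0.5%, against 1.72%) and 6 lower (3.0%, against 3.68%). These comparisons share the GFP libraries with that of IRX3_WT and GFP. The call held in every fit without 1 library for 47 of the 78 and 40 of the 61.

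**Figure D4:**
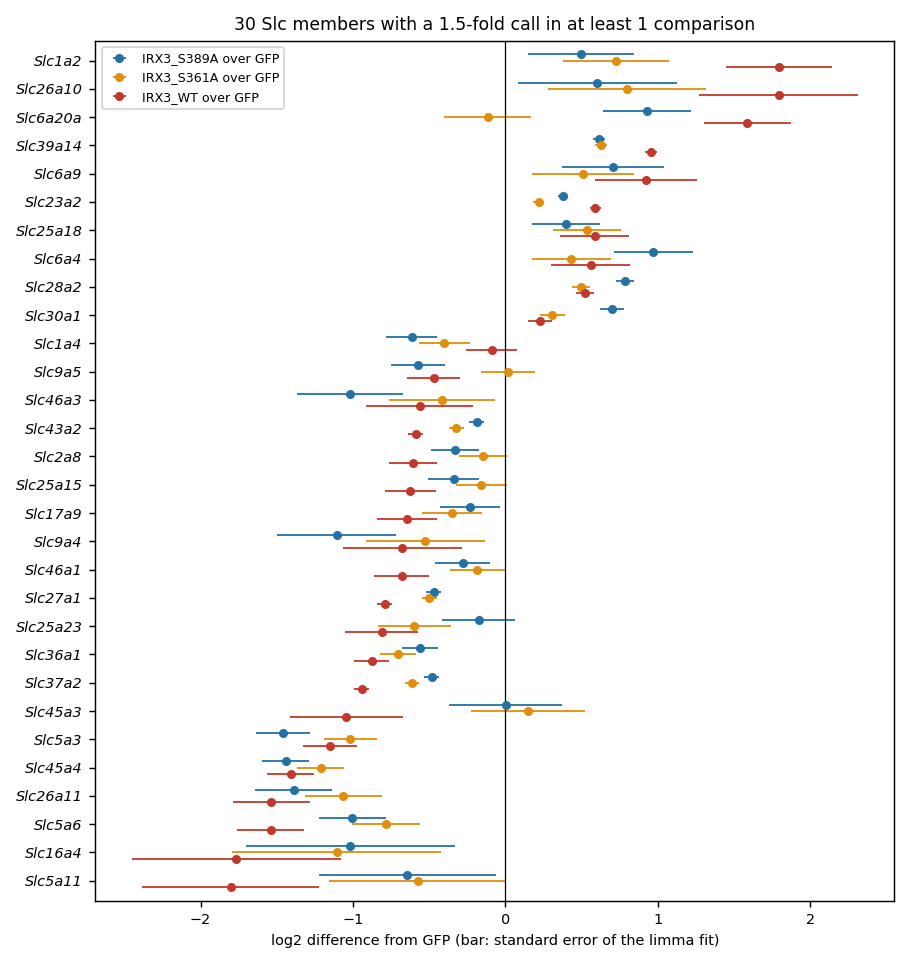
Log2 difference from GFP of the 30 members with a call of at least 1.5-fold in at least 1 of the 6 comparisons, for IRX3_S389A (blue), IRX3_S361A (orange) and IRX3_WT (red), with the standard error of the limma fit as bars. The 3 constructs share the GFP libraries. Slc26a10, Slc5a11 and Slc16a4 are included, but would have failed the limit on level without the group where they were highest. Nothing is read from their calls. Slc39a14, Slc37a2, Slc27a1 and Slc43a2 had the largest difference with IRX3_WT, and Slc30a1 and Slc28a2 with IRX3_S389A.

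The last question was where the substitutions differ from each other. With IRX3_S389A against IRX3_S361A, 31 members (15.5%) passed, while 10.2% of all genes did. Of these, 20 were higher (10.0%, against 7.0% of all genes) and 11 lower (5.5%, against 3.16%). With equal totals 10 were higher and 23 lower. The split of all 13369 genes turned alike, from 936 higher and 423 lower to 597 higher and 1053 lower. Differences of at least 1.5-fold without overlap were held by Slc6a20a, which was higher (log2 difference 1.05, SE 0.29, limma adjusted p = 0.0129), and by Slc9a5, which was lower, as given above (1.0% of members, against 0.8% of all genes, with 0.464% higher and 0.337% lower). The call of Slc6a20a ended without IRX3_S361A replicate 3, IRX3_S389A replicate 1 or IRX3_S389A replicate 2 (limma adjusted p up to 0.132). In 16 of the 31 the call held in every fit without 1 library.

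Higher with IRX3_S389A than with IRX3_S361A, besides Slc30a1, Slc28a2, Slc16a1, Slc23a2 and Slc25a12, was Slc29a3, a lysosomal nucleoside carrier chosen after its values were seen. It had 682, 714 and 759 normalized counts with IRX3_S389A, 605, 559 and 548 with IRX3_S361A, 605, 475 and 490.4 with IRX3_WT and 667, 578 and 632 with GFP. IRX3_S389A was highest (log2 difference, IRX3_S389A over IRX3_S361A, 0.33, SE 0.08, limma adjusted p = 0.00379), and it lay above IRX3_WT (log2 difference, IRX3_S389A over IRX3_WT, 0.46, SE 0.08, limma adjusted p = 4.48e-05). Slc16a10 and Slc48a1 were also higher, by 0.16 and 0.15, and Slc37a3 by 0.30 (limma adjusted p = 6.91e-04, 0.00463 and 0.0287). With equal totals Slc48a1 and Slc37a3 did not pass (limma adjusted p = 0.0856 and 0.074), and the call of Slc37a3 also ended without IRX3_S361A replicate 2, IRX3_S361A replicate 3, IRX3_S389A replicate 1 or IRX3_S389A replicate 2 (limma adjusted p up to 0.191). Lower with IRX3_S389A were Slc13a3 by 0.21 (log2 difference -0.21, limma adjusted p = 0.00129), Slc7a5 by 0.27 (log2 difference -0.27, limma adjusted p = 9.17e-04) and Slc38a2 by 0.27 (log2 difference -0.27, limma adjusted p = 6.93e-05).

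**Figure D5:**
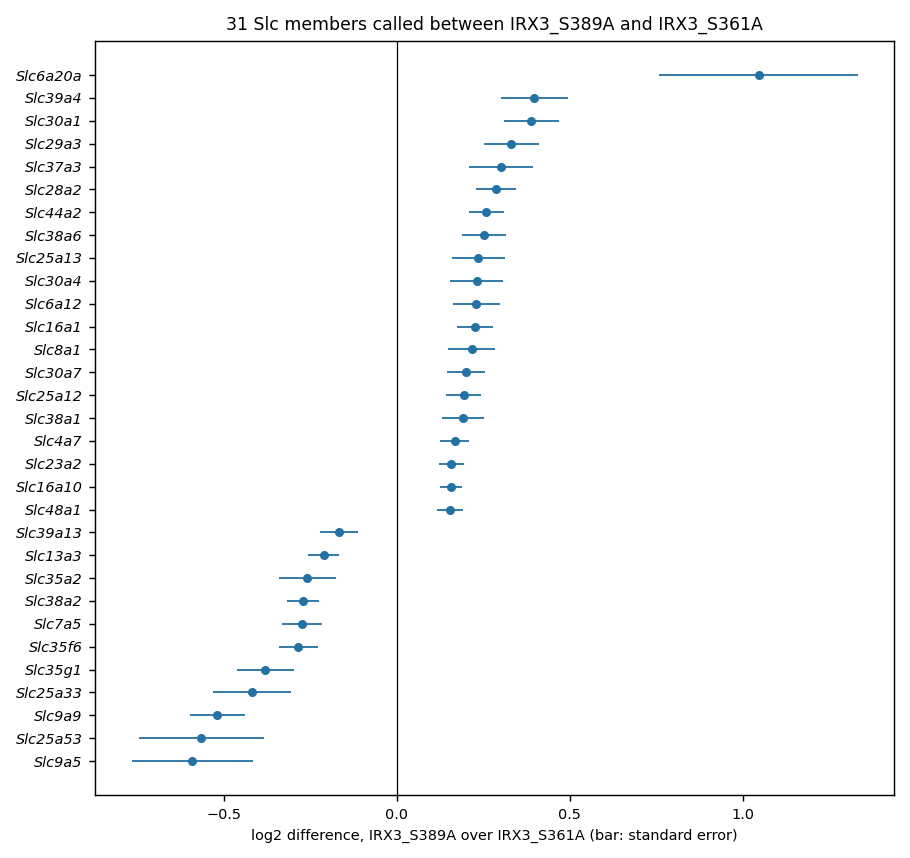
Log2 difference, IRX3_S389A over IRX3_S361A, of the 31 members called between these groups, with the standard error of the limma fit as bars. Of these, 20 lie right of 0, led by Slc6a20a, and 11 lie left of it, led by Slc9a5.

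Over all 4 groups, the limma F test called 107 members (53.5%), while it called 44.2% of all genes. In at least 1 of the 6 comparisons 132 members (66.0%) were called, while 53.3% of all genes were. Relative to IRX3_WT, the median absolute log2 difference of the members was 0.136 with IRX3_S361A (0.129 over all genes) and 0.144 with IRX3_S389A (0.127 over all genes), and it was 0.208 for IRX3_WT against GFP (0.214 over all genes).

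Genes of transport outside the members came from 5 lists, whose counts stand against 21.0% of all genes higher and 18.6% lower with IRX3_WT than with GFP, and whose medians against a median log2 difference of -0.01 over all genes. Of 31 tested genes of SLC families whose symbols do not begin with Slc, 3 rose and 13 fell with IRX3_WT against GFP (median log2 difference -0.15), or 2 and 21 with equal totals. Slco3a1, a carrier of prostaglandins and other organic anions, had 1225, 1352 and 1309 normalized counts with IRX3_S389A, 1259, 1233 and 1316 with IRX3_S361A, 1976, 1737 and 2013 with IRX3_WT and 816, 836 and 874 with GFP. IRX3_WT was highest and GFP lowest (log2 difference, IRX3_WT over GFP, 1.18, SE 0.06, limma adjusted p = 1.45e-19), and both mutants lay below IRX3_WT, by 0.56 with IRX3_S389A and 0.59 with IRX3_S361A (log2 differences -0.56 and -0.59, limma adjusted p = 2.76e-09 and 4.47e-10). Mfsd12, known for the import of cysteine into lysosomes and melanosomes, had 1094, 1108 and 1090.4 normalized counts with IRX3_S389A, 1047, 949 and 962 with IRX3_S361A, 695, 779.8 and 803 with IRX3_WT and 1589, 1545 and 1593 with GFP. GFP was highest and IRX3_WT lowest (log2 difference, IRX3_WT over GFP, -1.05, SE 0.06, limma adjusted p = 5.60e-18). Slco4a1, a carrier of thyroid hormones, fell as well (log2 difference -0.96, SE 0.06, limma adjusted p = 1.50e-15).

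Of 24 genes that sense amino acids at the lysosome or respond to their lack, 2 rose and 8 fell with IRX3_WT against GFP (median log2 difference -0.05), or 0 and 15 with equal totals. Rragd, a GTPase that recruits the kinase mTORC1 to lysosomes, had 82.7, 70.6 and 66.0 normalized counts with IRX3_WT and 165, 147 and 154 with GFP (log2 difference -1.08, SE 0.14, limma adjusted p = 3.52e-08). Tfeb, the transcription factor of lysosomal genes, fell by 0.65 (log2 difference -0.65, limma adjusted p = 1.32e-07), and Flcn, a regulator of Rag GTPases, by 0.40 (log2 difference -0.40, limma adjusted p = 9.67e-06). Of 7 partner subunits and chaperones of carriers 3 were higher and 1 lower (median log2 difference 0.07), but with equal totals 0 were higher and 3 lower. Of 11 sodium pump subunits and kinases of ion gradients 4 were higher and 0 lower (median log2 difference 0.07), but with equal totals 0 were higher and 6 lower. The direction of both lists thus turned with the scaling. Arl6ip5, Nptn and Emb led the list of partners, with log2 differences of 0.21, 0.13 and -0.18 under the deposited scaling and 0.03, -0.05 and -0.35 with equal totals. Sgk3, Atp1b3 and Sgk1 led the other, with 0.21, 0.18 and 0.18 under the deposited scaling and 0.04, 0.00 and 0.00 with equal totals.

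The limit on level shaped the list at its lower end. Of the 200 members, 175 had at least 10 normalized counts in all 12 libraries and 25 fell under 10 in some. Just inside, with 3 such libraries each, were Slc5a11, Slc9a3r2, Slc16a4 and Slc18b1. Just outside, with 2 each, were Slc16a11, Slc39a5 and Slc9a2, with highest values of 15.5, 14.8 and 11.4 normalized counts. No member passed the limit through a single group, but 7 (Slc5a11, Slc7a4, Slc9a3r2, Slc16a4, Slc18b1, Slc26a10 and Slc27a3) would have failed it without 1 of the groups. Of the 168 genes below the limit, 85 were at 0 in all 12 libraries.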

How the data were processed

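Per the submitters' processing notes, reads were handled with Trimmomatic, HISAT2 2.1.0 and StringTie 1.3.5 on mm10. The counting tool and the strand setting were not stated there. The deposited values are a normalized signal: gene counts that the authors divided by 1 size factor per library. All values were whole multiples of 1 step per library (tolerance 1e-06), so whole reads were recovered. In 3 libraries the step lay within 1% of 1, so the recovery changes their values by less than 1%, and those of the other 9 by more.

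Of 55401 genes, the 13369 that reached 10 normalized counts in 3 or more of 12 libraries were tested with limma 3.58.1 in R 4.3.3, with trend and robust settings, on log2(value + 1), with all 4 groups in 1 fit and no replicate block. A count test had been planned for a table of raw counts. The table is normalized, so limma is the main test, and edgeR 4.0.16 and DESeq2 1.42.0 on recovered reads are alternatives. The limma script was tested on simulated data. Other alternatives were the pseudocounts 0.5 and 5, no filter, equal totals, TMM, only 2 groups, the block and leaving out each library.

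Symbols and coordinates are from GENCODE M21 (GRCm38), which 99.5% of gene IDs matched. Named were members with a call of at least 1.5-fold and groups that do not overlap in any of 6 comparisons, and per substrate class the 3 highest per kilobase and the smallest F test p. Of each related list, the 3 smallest p for IRX3_WT against GFP were named. Some genes that the rules or lists include are counted but not reported by name here. Members, classes and lists were chosen with earlier results of these data known. The floor of 3 reads covers counting error only, while SDs, SEs and p-values rest on the spread between libraries.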

Additional observations from a re-analysis of the deposited data

How the results depend on the processing

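The counts of called members stayed within 1.5 times of those reported in all alternatives, also over the 193 members that pass the level limit without any 1 group, a choice made after seeing the data (88, 39, 42, 61, 78, 31 and 106 in the order below). Leaving out 1 library gave 75 to 92 members for IRX3_WT against GFP, 27 to 43 for IRX3_S361A and 31 to 44 for IRX3_S389A against IRX3_WT, 53 to 61 and 61 to 79 for the same mutants against GFP, 21 to 31 between the mutants and 89 to 108 over the 4 groups. Correlations of same-numbered libraries were small, from -0.041 to 0.0297. Between the mutants, each IRX3_S389A library correlated best with the IRX3_S361A library of the same number (0.0297, 0.0215 and 0.0263). A replicate block gave 88, 39, 41, 59, 78, 29 and 105 members in the same order. edgeR called 91, 40, 40, 63, 78, 31 and 108, and DESeq2 82, 32, 39, 56, 71, 28 and 100. Of 86 named values, 51 kept direction and side of the threshold in all alternatives. With equal totals, 3 turned for IRX3_WT against GFP: Slc13a3 to -0.0637, Slc25a3 to -0.11 and Slc35a4 to -0.13 (limma adjusted p = 0.243, 0.00535 and 0.0115). That scaling moves all genes by a common amount per library, so small differences against GFP depend on it. Depth limits members with few counts, such as Slc5a11 and Slc16a4. The labels do not say whether libraries are separate cultures.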
